A study of Mus musculus with 18 samples.

Results

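The nuclear-encoded respiratory chain genes are the genes of the cell nucleus whose products make up the 5 enzyme complexes of oxidative phosphorylation in mitochondria. They were chosen by name: protein-coding genes whose GENCODE mouse symbol begins with Nduf, Uqcr, Cox4 to Cox8 or Atp5, or is Sdha, Sdhb, Sdhc or Sdhd. This rule found 94 gene identifiers with 93 symbols among the 54446 identifiers counted, since Atp5o is annotated at 2 identifiers. They comprised 36 subunits and 8 assembly factors of complex I, 4 subunits of complex II, 8 of complex III, 20 of complex IV and 18 of complex V. Ndufa4 and Ndufa4l2, named after complex I, were placed with complex IV, where their products reside. The rule used no measured value, and it leaves out respiratory chain genes with other names, such as Cyc1.

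Complex I (NADH dehydrogenase) and complex II (succinate dehydrogenase) feed electrons to ubiquinone, complex III (ubiquinol-cytochrome c reductase) passes them to cytochrome c, and complex IV (cytochrome c oxidase) passes them to oxygen. Complex V, the ATP synthase, uses the proton gradient that complexes I, III and IV build. Mitochondrial DNA encodes 13 subunits of complexes I, III, IV and V, and their mRNAs (symbols beginning with mt-) served as the reference, while complex II is encoded in the nucleus alone. Embryonic stem cells rely largely on glycolysis and increase oxidative phosphorylation as they differentiate.

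Polyadenylated RNA was sequenced from embryoid bodies, suspension aggregates of differentiating stem cells, in 18 libraries. The C57BL/6 mouse embryonic stem cells carried conditional knockout (CKO) alleles of Mettl14 in one line and of Mettl3 in the other, genes for the paired subunits of the N6-methyladenosine writer of mRNA. At day 7 each line had 3 libraries of controls, 3 of the knockout, and 3 of the knockout given an inhibitor at 5 µM. The Mettl14 knockout received GSK343, an inhibitor of the H3K27 methyltransferase EZH2. The Mettl3 knockout received GSK-J4, an inhibitor of the opposing demethylases KDM6A and KDM6B. The inhibitor and the line changed together, and no control library had an inhibitor. Per the labels' protocols, CKO cells without inhibitor received DMSO. How the deletion was induced, and whether replicates were separate cultures, is not stated in the labels, so p-values measure the spread between these libraries, which may be technical.

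Depth ran from 721853 counts (GSK343 replicate 3) to 32540164 (Mettl3 knockout replicate 1), and Mettl14 knockout replicate 3 had 1303697. Counts over the whole Mettl14 gene were 16.3 to 22.9 TMM CPM in its knockout and 16.4 to 17.8 in its controls. Mettl3 ranged from 7.29 to 27.5 in its knockout and from 19.9 to 36.3 in its controls. TMM CPM are counts scaled to library size (CPM) and by edgeR's TMM factors, computed in each line on its own. Neither targeted gene passed the test (adjusted p = 1.00 for each, edgeR quasi-likelihood), and counts over a whole gene can lie outside the deleted part, so groups are called by their labels. Markers of mesenchymal, matrix-producing cells were abundant, with Spp1 at a median of 16434 CPM and Fn1 at 7833. Pou5f1, Nanog, T, Afp, Ttr and Cdx2 each had a median of 0, while Sox2 had 0.80 CPM and was at 0 in 4 libraries. The 4 pluripotency markers together had 0.136 to 2.16 CPM in the Mettl3 controls, 4.18 to 24.3 in the Mettl3 knockout and 0 to 41.6 with GSK-J4. The 8 mesenchymal markers together had 33216 to 50442 CPM in the 15 libraries without GSK-J4 and 14000.5 to 23469 with it. In the Mettl3 line they had 46494 to 50442 CPM in the knockout and 35585 to 42955 in the controls, without overlap. The 11 markers of striated muscle together had 5.54 to 30.7 CPM without GSK-J4 and 52.4 to 126 with it. The 3 endothelial markers had 1.77 to 18.5 CPM without GSK-J4 and 31.8 to 39.0 with it, and the 7 markers of germ layers 0 to 3.75 and 11.5 to 21.6. The GSK-J4 libraries were also the shallowest of their line, at 3395675 to 8289423 counts against 17544904 to 32540164. The part of these differences in the results on GSK-J4 and on the Mettl3 knockout was not tested. Shares of cells and RNA per cell cannot be told apart in these bulk samples.

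The respiratory chain mRNAs took 0.545 to 1.26% of the counts of a library. Of the 94 identifiers, 82 had a mean of at least 10 TMM CPM over the libraries without an inhibitor, and Cox8c and the second Atp5o identifier had no count in any library. Levels were compared between genes only per length, as TMM CPM per kilobase of the principal coding transcript, averaged over the 12 libraries without an inhibitor. Complex V and complex IV held the highest levels, with 561 for Atp5h, a subunit of the stalk of the ATP synthase, and 455 for Cox6c, a small subunit of cytochrome c oxidase. Cox4i1, the common form of subunit 4, had 353, and the catalytic beta subunit Atp5b had 317. In complex III, Uqcrb was highest at 313 and the core subunit Uqcrc2 lowest at 32.4. In complex I, Ndufa2 was highest at 184, against 51.5 for the flavin-binding core subunit Ndufv1 and 35.6 for Ndufs1, the largest subunit. Sdhb, the iron-sulfur subunit of complex II, had 78.8, and Sdhc, one of its membrane anchors, 14.8. The assembly factors of complex I, which build the complex without remaining in it, ranged from 6.24 for Ndufaf6 to 41.1 for Ndufaf2. The lowest complex I value, 0.80 for Ndufb2, rests on an annotated principal transcript of 4371 bases.

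Complex IV has tissue-specific isoforms, and the widely expressed form was the higher one in each pair. On the same scale per kilobase, Cox4i1 had 353 against 4.07 for Cox4i2, the form of lung and low oxygen. Cox6a1 had 216 and its heart and muscle form Cox6a2 0.130. Cox7a2 had 66.9, its relative Cox7a2l, a factor of supercomplex assembly, 70.7, and the muscle form Cox7a1 0.250. Cox6b1 had 144 against 5.00 for the testis form Cox6b2, and Cox7b 147 against 0 for Cox7b2, another testis form, whose 24 counts lay in 2 libraries, both with GSK-J4. Cox8a had 251, while Cox8b, the muscle form, had 2 counts in all libraries together. Ndufa4 had 67.1 and Ndufa4l2, a gene induced by low oxygen, 0.709. Among the 11 markers of striated muscle Ckm was at 0 in all 18 libraries and Myh6 in 13, whereas Tnnt2 was at 0 in 1 and reached 56.5 CPM. Among the 5 germ cell markers Tnp1 was at 0 in all 18 and Ddx4 in 11. The 5 together had 0 to 8.95 CPM without GSK-J4 and 1.69 to 19.8 with it, and their part in the values of the testis forms was not tested. Among the 3 genes for the same subunit c of the ATP synthase, Atp5g3 had 120, Atp5g2 52.5 and Atp5g1 8.92 TMM CPM per kilobase.

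Respiratory chain mRNAs were short. The principal coding transcript had a median of 849.5 bases, against 2569 for the 21839 protein-coding genes with a length, and 58.5% of them (55 of 94) were under 1000 bases. The genes lay on 19 chromosomes. Exons of 29 genes overlapped those of another gene on the opposite strand and exons of 6 on the same strand. For Ndufb6 the overlap with Smim27 on the other strand covered 39.0% of its exon bases. Whether counting used strand is not given in the sources used here, so reads of such pairs may not be told apart.

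Promoter sequences from RefSeq (GRCm38.p6, 250 bases before to 50 after the annotated start, first entry per gene) were matched for 76 of the 93 symbols and searched on both strands for 3 motifs of factors known to act on respiratory genes. The palindromic core of nuclear respiratory factor 1 (NRF-1), spelled by the capitals in the Uqcrc1 window below, was found in 7 (9.21%) against 1.32% of 17491 promoters in the table. CCGGAAG, the core of GABP and other ETS factors, was in 17 (22.4%) against 11.9%, and AAGATGGCG, bound by YY1, in 7 (9.21%) against 1.94%. At least 1 of the 3 was held by 28 of 76 (36.8%), against 14.5% of all promoters. A match describes letters in a window and is not evidence of binding. The 7 YY1 matches are shown because of their shared position: each lay on the strand of the gene, starting between 10 and 35 bases after the annotated start. Each window has 30 bases, 5′ to 3′ on the strand of the gene, with the motif in capitals.
Ndufa9, minus strand, chr6:126849096-126849125: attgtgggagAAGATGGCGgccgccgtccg
Ndufc1, minus strand, chr3:51408914-51408943: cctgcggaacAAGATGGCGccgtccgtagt
Ndufs4, minus strand, chr13:114388045-114388074: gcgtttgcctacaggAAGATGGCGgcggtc
Ndufs6, minus strand, chr13:73328433-73328462: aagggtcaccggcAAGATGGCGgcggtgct
Ndufs7, plus strand, chr10:80249463-80249492: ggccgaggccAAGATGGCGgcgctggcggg
Ndufaf8, plus strand, chr11:120098934-120098963: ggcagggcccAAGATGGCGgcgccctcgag
Atp5j2, minus strand, chr5:145191499-145191528: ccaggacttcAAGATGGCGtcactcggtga
Of these 7 genes, 5 encode subunits of complex I and Ndufaf8 one of its assembly factors. Among all 94 identifiers, 36 were complex I subunits and 8 its assembly factors. Only the 76 genes with a promoter entry could hold a match, and their split by complex is not given here.

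The motif windows of genes called in a comparison below are shown for reference, in the same form.
Uqcrc1, NRF-1, plus strand, chr9:108936668-108936697: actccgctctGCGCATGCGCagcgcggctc
Atp5h, GABP/ETS, minus strand, chr11:115419939-115419968: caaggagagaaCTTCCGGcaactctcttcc
Ndufs8, GABP/ETS, minus strand, chr19:3912741-3912770: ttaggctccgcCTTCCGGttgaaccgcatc
Ndufb6, GABP/ETS, minus strand, chr4:40279635-40279664: tcgtccttgttCTTCCGGtcccctccccta
The GABP/ETS motif is on the opposite strand to the gene in the last 3, so its reverse complement CTTCCGG is printed. It starts 38 bases before the annotated start in Atp5h, 15 after it in Ndufs8 and 232 before it in Ndufb6, and the NRF-1 motif starts 30 bases after it in Uqcrc1. Ndufb10, also called, held none of the 3. Atp5a1, also called, had no entry in the table.

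**Figure D1:**
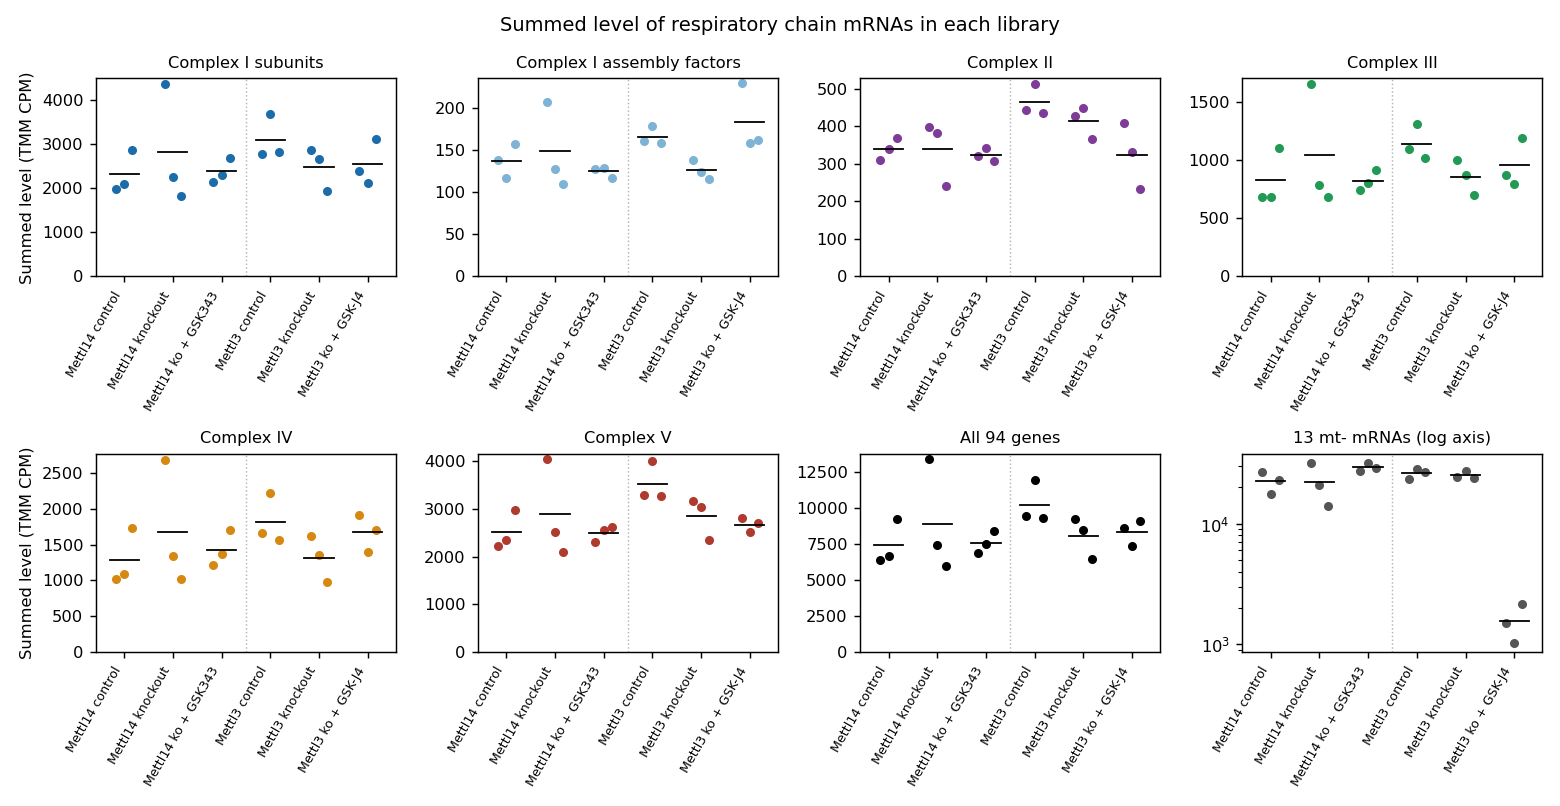
Summed level (TMM CPM, linear axes from 0, log axis for the mt- mRNAs) of the genes of each complex in each library, points for the 3 libraries of a group and a bar for their mean; the dotted line parts the 2 lines, which were scaled separately. Mettl14 knockout replicate 1 is the highest of its line for every nuclear-encoded set, and the GSK-J4 libraries are lowest for the mt- mRNAs, at 1023 to 2174.

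No respiratory chain gene was called on knockout of Mettl14. The summed level of the 94 identifiers was 6351, 6670 and 9216 TMM CPM in the controls and 13356, 7420 and 5965 in the knockout. Knockout replicate 1 was the highest of the 6 libraries and replicate 3 the lowest, so the groups overlapped. Of 88 genes tested, 0 passed an adjusted p of 0.05 (edgeR quasi-likelihood with Benjamini-Hochberg adjustment), where 0.00% of all 13882 genes tested passed. At an unadjusted p under 0.05 the count was 0 of 88, against 208 of 13882 genes, or 1.50%, and DESeq2 also called 0 members. The fitted log2 fold change was above 0 for 75 of 88, with a median of 0.33, where 51.7% of all genes were above 0 and their median was 0.01.

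That median rested on 1 library. Without knockout replicate 1 it was -0.20, with 21 of 88 genes above 0, and without control replicate 3, the highest control, it was 0.56. By complex, the medians were 0.33 for complex I subunits, 0.37 for complex III, 0.40 for complex IV and 0.35 for complex V, against 0.00 for complex II and -0.02 for the assembly factors. The 13 mt- mRNAs had a median of -0.07. Ndufa1, a small membrane subunit of complex I, had the smallest p. Its level was 22.0, 17.5 and 23.1 TMM CPM in the controls and 66.6, 24.9 and 17.6 in the knockout. Knockout replicate 1 stood far above the controls, replicate 2 just above them and replicate 3 within their range. The log2 fold change was 0.85 ± 0.41 (SE, 3 libraries each, adjusted p = 1.00 by edgeR). Sdhc had 26.3, 29.1 and 46.7 in the controls and 49.8, 47.3 and 45.3 in the knockout, at 0.48 on the log2 scale (adjusted p = 1.00, edgeR). For Ndufa9, a subunit of the arm of complex I that holds the electron carriers, the groups did not overlap, with 40.7, 43.9 and 45.9 in the controls against 63.8, 49.1 and 73.9. It was the only one of the 88 higher without overlap, where 3.28% of all genes were, and 1 was lower, where 4.20% were.

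Genes for short transcripts were high in that same library whether or not they belonged to the respiratory chain. In Mettl14 knockout replicate 1 the median log2 ratio to the control mean, over genes with at least 5 TMM CPM in the controls, was 1.16 for the 46 respiratory chain genes under 1 kb and 0.96 for the other 466 protein-coding genes of that length. At 2 kb or more it was 0.45 for 8 respiratory chain genes and -0.15 for 7640 others. Summed cytosolic ribosomal protein mRNAs, which are short as well, had 58424 TMM CPM there against 22866 to 34424 in the controls. The order also appeared within the controls: replicate 3 had 0.45 for the short respiratory chain genes and replicate 1 had -0.30. Whether transcript length or RNA quality had a part in these differences was not tested.

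**Figure D2:**
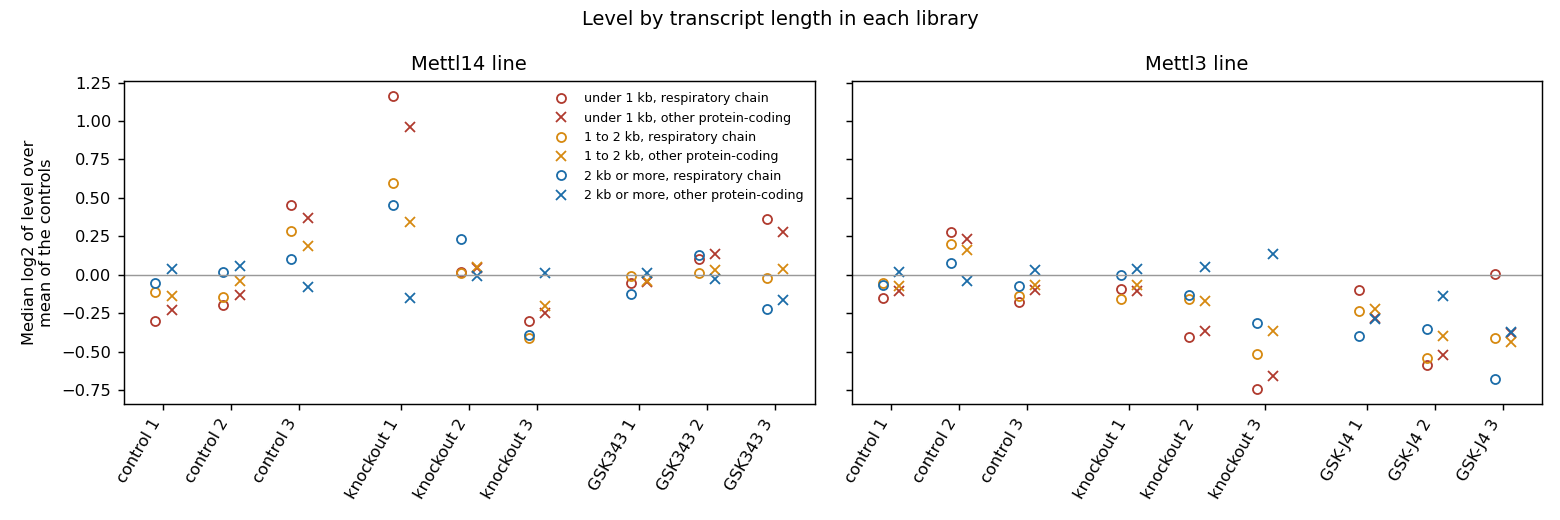
Median log2 of the level over the mean of the line's controls in each library (y axis), for respiratory chain genes (circles) and other protein-coding genes (crosses) in 3 classes of transcript length (colours). In Mettl14 knockout replicate 1 the genes under 1 kb reach 1.16 and 0.96, and in Mettl3 knockout replicate 3 they are at -0.74 and -0.66.

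GSK343 on the Mettl14 knockout brought the summed level to 6847, 7503 and 8368 TMM CPM, inside the range of the untreated knockout and of the controls. Against the knockout, 0 of 88 genes were called, where 0.0288% of all genes tested were, all of them higher. An unadjusted p under 0.05 was found for 3 of 88, against 5.74% of all genes, and DESeq2 also called 0 members. The median log2 fold change was -0.29, with 14 of 88 above 0 where 46.8% of all genes were, and all 8 genes of complex III were below 0. Without overlap, 2 genes were higher and 6 lower, where 4.56% and 5.44% of all genes were. Without knockout replicate 1 the median became 0.21, so the direction turned with the same library as before. Ndufa9 had the smallest p, with 27.9, 36.2 and 39.0 TMM CPM against 63.8, 49.1 and 73.9, below the knockout in each library. Its log2 fold change was -0.87 ± 0.28 (SE, 3 libraries each; adjusted p = 0.591 by edgeR). Ndufaf6, an assembly factor of complex I, had 3.16, 1.47 and 0 against 4.41, 9.30 and 5.88, at -1.70 ± 0.72 (adjusted p = 0.806, edgeR). The library at 0 was the shallowest, where the floor of 3 counts is 4.16 CPM.

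Against the controls, the GSK343 libraries also had 0 of 88 genes called, where 0.166% of all genes were. An unadjusted p under 0.05 was found for 3 of 88 against 4.34% of all genes, and DESeq2 called 0 members. The median log2 fold change was 0.01, with 45 genes above and 43 below 0, where 48.5% of all genes were above. Without overlap, 3 were higher and 4 lower, where 4.65% and 6.71% of all genes were. Without control replicate 3 the median was 0.25, and without control replicate 1 it was -0.10. Ndufaf6 had the smallest p, with the values above against 9.84, 6.90 and 8.85 in the controls, lower in each library at -2.08 ± 0.71 (SE; adjusted p = 0.708 by edgeR). Uqcrc1, a core subunit of complex III, had 107, 113 and 57.1 TMM CPM against 127, 126 and 170 in the controls, all 3 lower, at -0.57 ± 0.26 (SE, 3 libraries each; adjusted p = 1.00 by edgeR). The mt- mRNAs summed to 27209, 31724 and 28874 TMM CPM with GSK343, against 26626, 17714 and 22800 in the controls, without overlap, and 0 of 13 were called. Among them mt-Co1, the catalytic subunit of complex IV, had 8767, 9605 and 8519 against 6941, 5057 and 5295, at 0.64 ± 0.24 (adjusted p = 0.829, edgeR). It was the only 1 of the 13 higher without overlap, where 4.65% of all genes were. Fitted values were above 0 for 9 of the 13 and below 0 for 4, with a median of 0.20.

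No respiratory chain gene was called on knockout of Mettl3 either, but most fitted values were below 0. The summed level was 9418, 11911 and 9273 TMM CPM in the controls and 9211, 8492 and 6451 in the knockout. Every knockout library was below every control, by a narrow margin for knockout replicate 1. Of 87 genes tested, 0 passed, where 0.00% of all 16782 genes did. At an unadjusted p under 0.05 there were 6 of 87 against 315 of 16782 genes, or 1.88%, and DESeq2 called 0 members. The median log2 fold change was -0.35, with 8 of 87 above 0 where 49.0% of all genes were, and the median of all genes was -0.01. It ranged from -0.46 to -0.20 as each library was left out, without changing sign. It was -0.20 without control replicate 2, the highest control, and without knockout replicate 3, the lowest library. In 17 of 87 genes every knockout library lay below every control, where 6.61% of all genes did so, and 1 gene was higher without overlap, where 6.48% were.

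The medians by complex were -0.35 for complex I subunits, -0.33 for the assembly factors, -0.17 for complex II, -0.40 for complex III, -0.45 for complex IV and -0.28 for complex V. The mt- mRNAs had a median of -0.15 and overlapping sums, of 23587 to 28592 TMM CPM in the controls and 23672 to 27244 in the knockout. Atp5h had the smallest p, with 433, 615 and 427 TMM CPM in the controls and 349, 364 and 234 in the knockout. Each knockout library was below each control, at a log2 fold change of -0.64 ± 0.23 (SE, 3 libraries each; adjusted p = 1.00 by edgeR). Uqcrq, a small subunit of complex III, had 318, 368 and 296 against 272, 238 and 163, again without overlap. Cox6c had 382, 499 and 385 against 347, 301 and 199, without overlap at -0.58 ± 0.23 (adjusted p = 1.00, edgeR). Cox6c and Atp5h are the most abundant members of their complexes per length, as given above. Short genes outside the respiratory chain lay on the same side: in knockout replicate 3 the median was -0.74 for the 46 respiratory chain genes under 1 kb and -0.66 for 484 other protein-coding genes under 1 kb. In replicates 1 and 2 the pairs were -0.09 and -0.11, and -0.40 and -0.36. The part of transcript length in the difference was not tested.

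The 2 knockout effects were set against each other in a fit of all 18 libraries. No gene of 88 was called for the difference, where 0.00% of 16326 genes were, and 7 of 88 had an unadjusted p under 0.05 against 2.24% of all genes, while DESeq2 called 0 members. The median difference, Mettl14 effect minus Mettl3 effect, was 0.63 on the log2 scale, with 79 of 88 above 0, where 48.0% of all genes were. Without Mettl14 knockout replicate 1 it was 0.11, with 60 above 0. Ndufa6, a subunit of complex I, had the smallest p, at 1.22 ± 0.49 (SE; adjusted p = 1.00 by edgeR), and 0.77 without that library. Ribosomal protein genes lay on the same side, with a median difference of 0.79 for 83 cytosolic and 0.59 for 77 mitochondrial ones. By length, it was 0.78 for the 49 respiratory chain genes under 1 kb and 0.27 for the 9 of 2 kb or more. The part of transcript length was not tested.

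**Figure D3:**
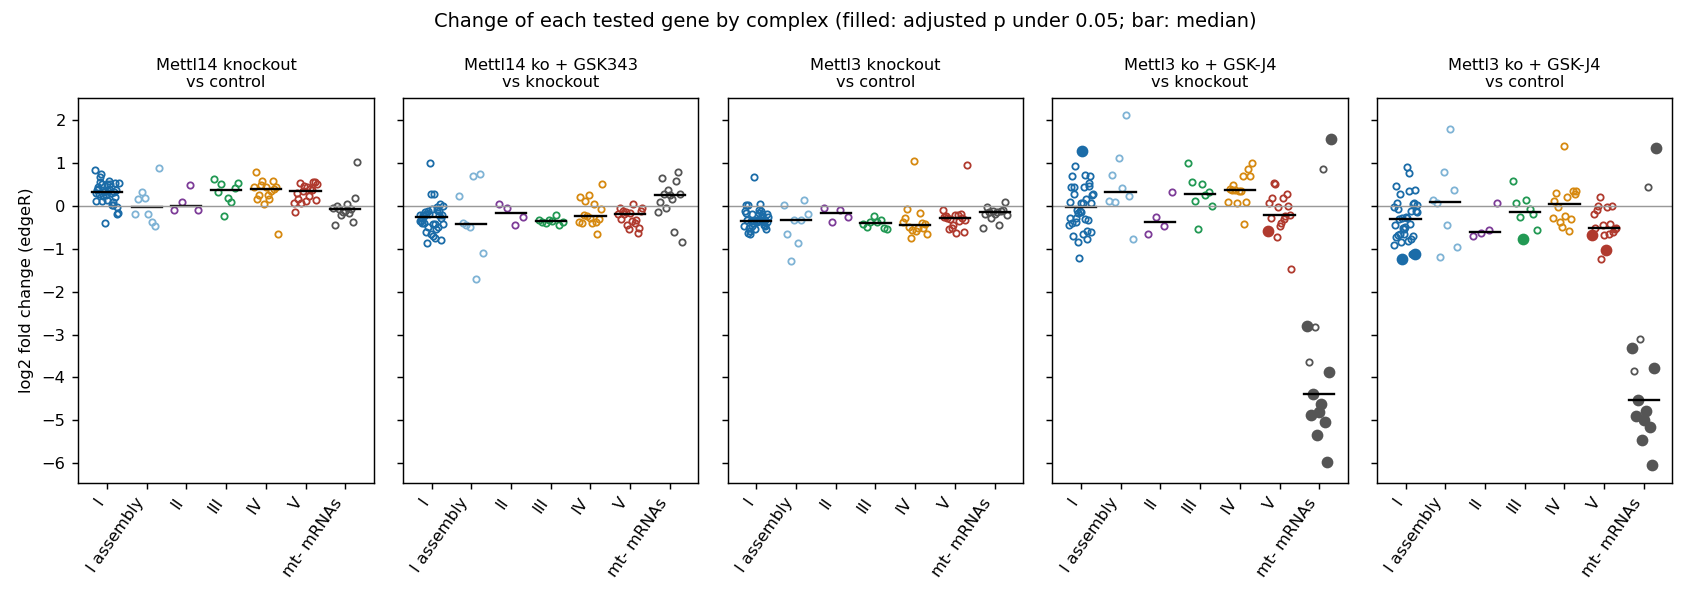
Log2 fold change of each tested gene (points, edgeR) by complex in 5 comparisons, with filled points for an adjusted p under 0.05 and a bar for the median of each set. The nuclear-encoded genes lie between -1.70 and 2.11. With GSK-J4 the median of the mt- mRNAs is -4.39 against the knockout and -4.53 against the controls.

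Few nuclear-encoded genes were called with GSK-J4 on the Mettl3 knockout, while most mt- mRNAs were called lower. The summed level of the 94 identifiers was 8621, 7332 and 9108 TMM CPM, overlapping the knockout's range and below the 3 controls. Against the knockout, 2 of 87 genes (2.30%) were called, where 13% of all genes tested were, so the share was under the background. There was 1 higher and 1 lower, where 3.96% and 9.07% of all genes were. An unadjusted p under 0.05 was found for 12 of 87 against 28.5% of all genes, and without overlap 8 were higher and 4 lower, against 10.9% and 22.3%. The median log2 fold change was 0.09, with 51 of 87 above 0 where 48.2% of all genes were. DESeq2 called 8 members higher and 2 lower. The split of the calls also moved with the scaling, to 4 higher and 0 lower with RLE size factors and 8 and 0 with library totals alone. The latter moved the median of all genes from -0.06 to 0.19, and the members' median relative to it was 0.15 under both TMM and library totals. That relative median was -0.06 without knockout replicate 3, 0.04 without GSK-J4 replicate 3 and 0.39 without GSK-J4 replicate 2. Without GSK-J4 replicate 1, 2 or 3 the members called were 6, 7 and 8, without control replicate 1 there was 1, and without any other control or knockout library there were 0. The background shares above belong to the main edgeR fit. Shares of all genes called under the other settings are not given here, so those counts have no background beside them. The median was -0.14 without GSK-J4 replicate 3 and -0.10 without replicate 1.

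Ndufb6, a membrane subunit of complex I, was the gene called higher. It had 55.6, 54.5 and 64.2 TMM CPM with GSK-J4, 30.8, 19.8 and 21.2 in the knockout and 35.1, 28.4 and 28.8 in the controls. All 3 treated libraries were above the other 6, with a log2 fold change against the knockout of 1.28 ± 0.33 (SE, 3 libraries each; adjusted p = 0.0257 by edgeR). The call was lost, with an adjusted p of up to 0.161, when any 1 control or knockout library was left out, and the size then ran from 1.04 to 1.50. It was also lost without the low-count filter and in a fit of only the 2 groups. Against the controls Ndufb6 did not pass, at 0.92 on the log2 scale (adjusted p = 0.0924, edgeR). DESeq2 called it higher there.

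Atp5a1, the alpha subunit of the catalytic head of the ATP synthase, was the gene called lower. It had 327, 437 and 349 TMM CPM with GSK-J4, 592, 587 and 495 in the knockout and 633, 601 and 555 in the controls. The treated libraries lay below all others, and the log2 fold change was -0.59 ± 0.17 against the knockout (SE, 3 libraries each; adjusted p = 0.0448 by edgeR). The call was lost without control replicate 2 or 3 or any 1 knockout library, at an adjusted p of up to 0.162. It was also lost with RLE size factors, with library totals alone and in a fit of only the 2 groups. In the Mettl14 line Atp5a1 ran from 433 to 516 TMM CPM over all 9 libraries. Its catalytic partner Atp5b had 634, 561 and 838 with GSK-J4 against 672, 723 and 554, overlapping the knockout, at 0.06 (adjusted p = 0.866, edgeR).

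Against the controls, 5 of 87 genes (5.75%) were called, all lower, where 11.4% of all genes were called, 3.16% higher and 8.25% lower. An unadjusted p under 0.05 was found for 20 of 87 against 27.9% of all genes, and without overlap 2 were higher and 20 lower, against 10.2% and 23.1%. The median was -0.27 with TMM, -0.15 with RLE size factors and 0.00 with library totals alone, which moved the median of all genes from -0.08 to 0.18. The members' median relative to that of all genes was -0.19 with TMM, -0.17 with RLE and -0.18 with library totals, but 0.07 without GSK-J4 replicate 2. With TMM 27 of 87 were above 0 where 47.4% of all genes were. The calls were 0 higher and 3 lower with RLE, 1 higher and 7 lower with DESeq2, and 1 higher and 1 lower with library totals. Shares of all genes called under these settings are not given here. Atp5h had 232, 290 and 202 TMM CPM with GSK-J4 against 433, 615 and 427, below the controls in each library, at -1.02 ± 0.24 (SE, 3 libraries each; adjusted p = 0.0171 by edgeR). Its treated libraries overlapped the knockout, which had 349, 364 and 234. Atp5a1 was lower by the values above, at -0.68 ± 0.17 (adjusted p = 0.0261, edgeR). Both belong to complex V, of which 16 of 17 tested genes were below 0, with a median of -0.51.

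In complex I, Ndufb10, a subunit of its membrane arm, had 51.9, 98 and 54.3 TMM CPM with GSK-J4 against 134, 201 and 145 in the controls. The groups did not overlap, at -1.23 ± 0.33 (SE, 3 libraries each; adjusted p = 0.0330 by edgeR). Ndufs8, a core subunit that holds iron-sulfur clusters, had 37.1, 24.4 and 42.6 against 72.3, 77.1 and 77.7, at -1.13 ± 0.33 (adjusted p = 0.0464, edgeR). In the knockout it had 67.9, 54.4 and 34.7, between the other groups and overlapping the treated libraries. In complex III, Uqcrc1 had 109, 127 and 99.1 against 192, 224 and 158, without overlap, at -0.77 ± 0.22 (adjusted p = 0.0407, edgeR). The call of Ndufs8 was lost on leaving out any 1 of 7 libraries, that of Uqcrc1 on 5, of Atp5a1 on 4, of Ndufb10 on 2 and of Atp5h on 1. Control replicate 2 was among them for each of the 5, and without it 0 of the members were called. Members called were 12 without GSK-J4 replicate 1 and 11 without replicate 3. They were 2 without control replicate 1, 1 without control replicate 3, 2 without knockout replicate 1 and 3 without knockout replicate 3. Shares of all genes called in these fits are not given here, so the counts cannot be read as particular to the respiratory chain.

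**Figure D4:**
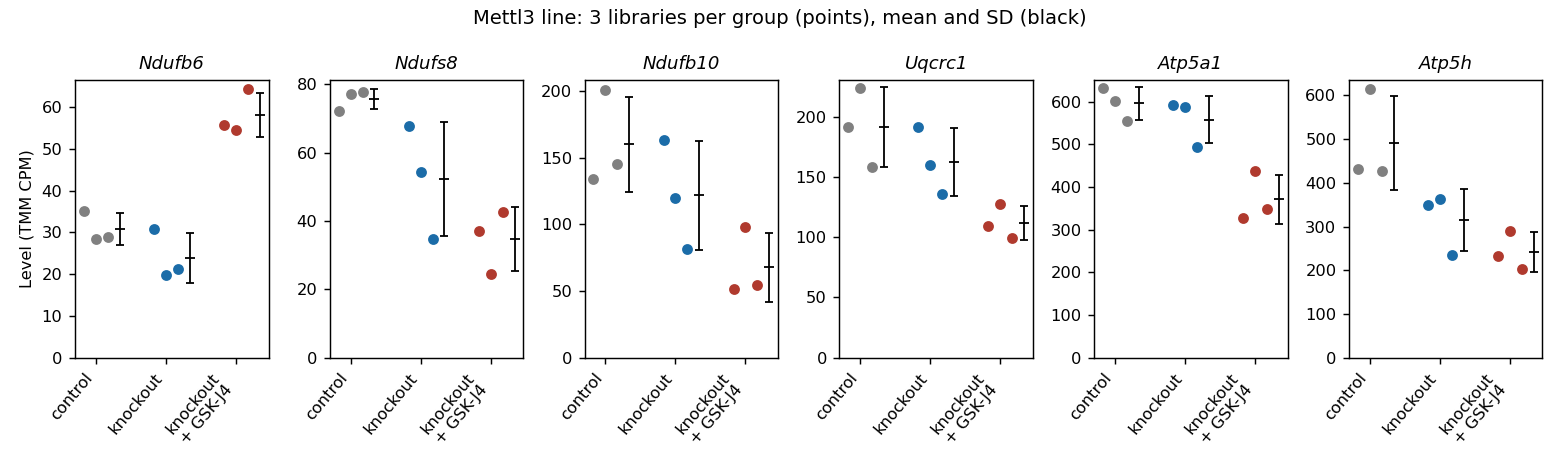
Level (TMM CPM, axes from 0) of the 6 respiratory chain genes called by edgeR with GSK-J4 in the 9 libraries of the Mettl3 line. Each group has 3 points, with the mean and SD in black. Ndufb6 is at 54.5 to 64.2 with GSK-J4, above the other 6 libraries, and Atp5a1 at 327 to 437, below them.

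The complexes differed in median against the knockout, from -0.37 for complex II and -0.20 for complex V to 0.38 for complex IV, where 13 of 14 tested genes were above 0. These are descriptions of fitted values, and no other gene passed in edgeR. DESeq2 also called Sdha lower and Uqcr10, Cox7c, Ndufa4, Cox8a, Ndufa7, Ndufaf2 and Atp5f1, the last of complex V, higher against the knockout. Sdha, the catalytic flavoprotein of complex II, had 114, 178 and 103 TMM CPM with GSK-J4 and 223, 195 and 205 in the knockout, without overlap, at -0.66 ± 0.22 (SE, 3 libraries each; adjusted p = 0.0774 by edgeR). Uqcr10, a small subunit of complex III, had 64.6, 95.8 and 137 against 63.0, 39.0 and 45.3, at 1.01 ± 0.31 (adjusted p = 0.0511, edgeR). Cox7c, a small subunit of complex IV, had 79.4, 93.3 and 89.9 against 62.9, 46.1 and 36.4, at 0.85 ± 0.27 (adjusted p = 0.0578, edgeR). Ndufa4 had 81.5, 72.5 and 49.0 against 42.9, 30.8 and 27.9, at 1.00 ± 0.32 (adjusted p = 0.0664, edgeR). Cox4i1 overlapped the knockout, with 251, 186 and 335 against 275, 261 and 188, and so did Cox5a, with 94.8, 67.8 and 96.0 against 75.1, 60.3 and 62.5. The core subunits Ndufs1 and Ndufv1 were uneven among the treated libraries, at 71.5, 48.8 and 184, and at 52.9, 54.3 and 176. Ndufaf6 was more so, at 0, 1.99 and 67.0. By length, the 48 genes under 1 kb had a median of 0.28 against the knockout and the 9 of 2 kb or more -0.48. Relative to the mean of the controls, the short respiratory chain genes were at -0.10, -0.59 and 0.00 in the 3 GSK-J4 libraries, and other short protein-coding genes at -0.28, -0.52 and -0.38.

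Beside these, the mt- mRNAs summed to 1500.5, 1023 and 2174 TMM CPM with GSK-J4, against 24288, 27244 and 23672 in the knockout. Of the 13, 9 were called lower and 1, mt-Nd6, higher, where 9.07% and 3.96% of all genes were. Fitted values were below 0 for 11 and above 0 for 2, with a median log2 fold change of -4.39. The mRNA of mt-Co1 had 192, 195 and 348 TMM CPM against 6578, 7920 and 6969, at -4.87 ± 0.26 (SE, 3 libraries each; adjusted p = 2.25e-06 by edgeR). The mRNA of mt-Nd6, the only one of the 13 encoded on the other strand of mitochondrial DNA, had 680, 443 and 570 against 189, 155 and 227, at 1.57 ± 0.21 (adjusted p = 0.000825, edgeR). The ratio of nuclear-encoded to mt- counts, taken within a library and so free of scaling, was 5.75, 7.17 and 4.19 with GSK-J4. In the other 15 libraries it ran from 0.237 to 0.423. Without mt-Nd6 in the denominator it was 10.5, 12.6 and 5.68. The group means were 0.340 in the Mettl14 controls, 0.400 in their knockout and 0.259 with GSK343, and 0.388 in the Mettl3 controls and 0.321 in their knockout. With GSK343 the 3 ratios of 0.252, 0.237 and 0.290 were below the 3 of the knockout, 0.423, 0.355 and 0.422, and overlapped the controls, whose lowest was 0.239. With 3 libraries against 3, an exact two-sided permutation test cannot go below p = 0.100, so the ratios are given without a test.

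**Figure D5:**
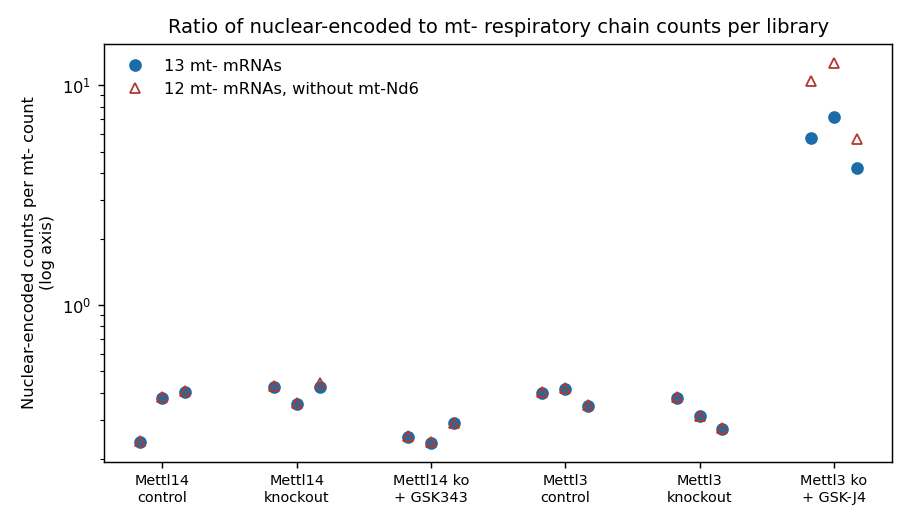
Ratio of the summed counts of the nuclear-encoded genes to the summed counts of the 13 mt- mRNAs (circles) or of 12 without mt-Nd6 (triangles) in each library, on a log axis. The 3 GSK-J4 libraries lie at 4.19 to 7.17 and the other 15 at 0.237 to 0.423.

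Genes around the respiratory chain were described by lists of known members. Among 37 further genes of the pathway (cytochromes c and c1 and assembly factors of complexes I to V), none was called in either knockout or with GSK343. With GSK-J4, 1 was lower against the knockout and 2 against the controls, where 9.07% and 8.25% of all genes tested were lower. They were Uqcc2, an assembly factor of complex III, at 37.3 ± 1.56 TMM CPM (SD, n = 3) against 78.2 ± 25.7 in the knockout (log2 fold change -1.07 ± 0.29 SE, adjusted p = 0.0332 by edgeR) and 109 ± 26.0 in the controls, and Atpif1, the inhibitor of ATP synthase, lower against the controls alone at -0.89 ± 0.22 (adjusted p = 0.0241, edgeR). Of 19 regulators, among them Nrf1, Gabpa, Yy1, Ppargc1a and Tfam, 1 was called in each GSK-J4 comparison. It was lower in each, where 9.07% and 8.25% of all genes were lower. Against the knockout this was Lrpprc, which stabilizes mitochondrial mRNAs, at 58.4 ± 19.5 against 117 ± 9.20 TMM CPM (SD, n = 3). Its log2 fold change was -0.997 ± 0.264 (SE, adjusted p = 0.0304 by edgeR). Most regulators lay on the other side, with 13 of the 19 above 0 against the knockout and 14 against the controls. The medians were 0.25 and 0.32, and 48.2% and 47.4% of all genes were above 0. Of 14 enzymes of the tricarboxylic acid cycle, which supplies complexes I and II with electrons, 2 were lower with GSK-J4 against the knockout (Fh1 and Idh2). Against the controls 4 were lower, and 13 had a log2 fold change below 0, with a median of -0.53. The shares of all genes called lower were 9.07% and 8.25%. Idh2, the mitochondrial NADP-dependent isocitrate dehydrogenase, had 9.77 ± 6.84 against 62.9 ± 9.37 TMM CPM in the knockout (SD, n = 3), at -2.71 ± 0.58 (SE, adjusted p = 0.0109 by edgeR). The mitochondrial ribosomal proteins, 77 tested, had 4 called higher against the knockout (a share near the 3.96% of all genes) and a median of 0.29. Against the controls 0 were called higher and 1 lower, with a median of -0.01.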

How the data were processed

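The authors deposited raw counts per gene for each of the 18 libraries, 1 file per sample. Per the labels' protocols, poly(A) RNA was selected and libraries were made with a SMARTer Stranded Total RNA-Seq kit. Per the submitters' processing notes, CASAVA, Trimmomatic 0.38, HISAT2 2.1.0, HTSeq and the build mm10 were used. The annotation release and whether reads were counted by strand: not given in the sources used here. Of 54446 identifiers, 54409 matched GENCODE release M21, from which symbols, lengths and coordinates come. The rest was computed here. The members, gene lists and tests were chosen with earlier results of these data known. Each line's 9 libraries were fitted together by quasi-likelihood in edgeR 4.0.16 (R 4.3.3), after filterByExpr and TMM scaling. All 18 libraries entered the fit that set the Mettl14 effect against the Mettl3 effect. A gene is called at a Benjamini-Hochberg adjusted p under 0.05 over all genes tested. SE is the log2 fold change divided by the square root of F. The biological coefficient of variation was 0.394 in the Mettl14 line and 0.843 in the Mettl3 line, and 3 counts correspond to 0.0922 to 4.16 CPM, which covers counting error only. Length classes used a pseudocount of 0.5 TMM CPM. Genes were named by rule: called members, core subunits, isoform pairs, and per complex the extremes of p, change and level per length. Some genes that fall under this rule or these lists are not reported here. The fits were tested on simulated data. Alternatives were RLE size factors, DESeq2 1.42.0, no low-count filter, a replicate block, thinned counts, other sets of libraries and, added after seeing the data, library totals alone and omission of the 2 shallowest libraries. Python 3.11.15 and matplotlib 3.10.9 made the plots.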

Additional observations from a re-analysis of the deposited data

How the results depend on the processing

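In the Mettl14 line, in the Mettl3 knockout and in the difference of the knockout effects, no member was called under any setting tried. Leaving out 1 library at a time moved the medians from -0.20 to 0.56 (Mettl14 knockout), -0.46 to 0.21 (GSK343 against knockout), -0.10 to 0.25 (GSK343 against control), -0.46 to -0.20 (Mettl3 knockout), -0.14 to 0.22 (GSK-J4 against knockout), -0.48 to -0.12 (GSK-J4 against control) and 0.11 to 0.84 (difference). The GSK-J4 counts were less stable, and the share of all genes called under each setting is not given beside them. Against the knockout, 2 members became 4 with RLE size factors (all higher), 10 with DESeq2 (8 higher), 4 with thinned counts, 8 with library totals alone (all higher, median 0.34), 0 with only the 2 groups and 0 to 8 without 1 library. Against the controls, 5 became 3 with RLE, 8 with DESeq2, 9 without the low-count filter, 9 with all 18 libraries, 1 with only the 2 groups, 2 with library totals alone (1 higher, median 0.0017) and 0 to 12 without 1 library. Single members turned sign as follows (log2 fold changes). With GSK-J4 against the controls, Uqcrfs1 was 0.031 with RLE, 0.029 with DESeq2 and 0.19 with library totals, which also turned Ndufs1 to 0.15, Ndufv1 to 0.15 and Atp5b to 0.070. Against the knockout, Ndufv1 was -0.023 and Atp5b -0.026 without the low-count filter, and Ndufv1 -0.11 and Ndufs1 -0.019 with the replicate block. Without the 2 shallowest libraries the medians were 0.54 with 81 of 88 above 0 (Mettl14 knockout), -0.54 with 4 of 88 (GSK343 against knockout), -0.02 (GSK343 against control) and 0.84 (difference), and Ndufb2 was -0.0071 (GSK343 against knockout) and Cox4i2 -0.62 (GSK343 against control). Leaving out 1 library gave -1.11 to 0.67 for Ndufa4l2 and -0.25 to 1.04 for Atp5l (Mettl14 knockout), -0.65 to 0.00060 for Uqcrh and -1.06 to 0.18 for Cox7c (GSK343 against knockout) and -0.62 to 1.59 for Cox4i2 (GSK343 against control). With GSK-J4 against the knockout it gave -0.74 to 0.48 for Ndufs1, -0.89 to 0.33 for Ndufv1, -2.43 to 2.65 for Ndufaf6, -0.067 to 0.45 for Uqcrfs1, -0.28 to 0.26 for Cox4i1 and -0.25 to 0.17 for Atp5b. Against the controls it gave -1.01 to 0.21 for Ndufs1, -1.07 to 0.15 for Ndufv1, -2.75 to 2.33 for Ndufaf6 and -0.39 to 0.12 for Uqcrfs1. The cause was not tested. Where an arm was left with 2 libraries, they are taken to vary like the other groups.

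Same-numbered replicates did not deviate together (correlations of -0.161 to 0.149), and the main fits did not pair them. Such correlations cannot show whether same-numbered libraries shared a culture or batch. With the replicate block, 0 members were called with GSK-J4 against the knockout and 2 against the controls, and the members' median relative to that of all genes was 0.36 and 0.03. Without the low-count filter these were -0.0017 and -0.35.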

Other observations

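Among 8 genes induced by low oxygen, listed as a reference, 3 were called higher with GSK-J4 against the knockout and 2 against the controls. The shares of all genes called higher were 3.96% and 3.16%. None of the 8 was called in any other comparison. Slc2a1, the main glucose transporter, had 266 ± 9.32 TMM CPM with GSK-J4 (SD, n = 3), 121 ± 9.68 in the knockout and 166 ± 6.82 in the controls. Its log2 fold change was 1.13 ± 0.17 (SE, adjusted p = 0.0014 by edgeR) against the knockout and 0.68 ± 0.17 (adjusted p = 0.0236, edgeR) against the controls. Bnip3, a mitophagy receptor, had 181 ± 57.6 with GSK-J4 and 49.6 ± 12.7 in the knockout, at 1.87 ± 0.32 (adjusted p = 0.0031, edgeR). Egln3, an oxygen-sensing prolyl hydroxylase, had 24.0 ± 9.69 against 2.35 ± 1.22 in the knockout, at 3.35 ± 0.87 (adjusted p = 0.0274, edgeR). Ndufa4l2, a respiratory chain gene also induced by low oxygen, had no count in the 3 GSK-J4 libraries and up to 0.374 TMM CPM in the controls of that line, where the floor of 3 counts is 0.362 to 0.883 CPM in the GSK-J4 libraries.

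In the Mettl14 line, mt-Nd6 stood at 682 TMM CPM in knockout replicate 3, against 149 to 280 in the other 8 libraries.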
